A study of Homo sapiens with 2 samples.

Results

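The MYST acetyltransferases and the partner subunits of KAT6B were examined as 9 genes of the 20033 protein-coding genes of the GENCODE annotation. The genes were KAT6A, KAT6B, KAT5, KAT7 and KAT8, which encode the MYST enzymes, and BRPF1, BRPF3, ING5 and MEAF6, which encode the subunits that assemble with KAT6A, KAT6B or KAT7. All peaks of open chromatin over the annotated body of each gene or within 20 kb on either side were taken, which gave 170 of 245736 peaks in replicate 1 and 192 of 259745 peaks in replicate 2. The cells were CAMA-1, a luminal, estrogen receptor-positive breast cancer line grown as an adherent culture without treatment, and the 2 biological replicates formed a single condition. Chromatin accessibility was measured by ATAC-seq, which uses a transposase (Tn5) to tag DNA where it is not packed into nucleosomes. The submitters made a list of peaks for each replicate separately. KAT6B was also 1 of the loci that they used as a constitutively open control when checking each library by qPCR, so openness at KAT6B was a condition for accepting the libraries, and the position of the amplified segment was not analysed here.

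MYST enzymes transfer acetyl groups to lysines of histone tails, a modification found at active genes. KAT6A and KAT6B are close paralogs that work in a complex with a BRPF scaffold, ING5, which binds trimethylated histone H3, and MEAF6, which is shared with other MYST complexes. KAT6A lies in a chromosomal segment that is frequently amplified in luminal breast cancer, and it has been linked to expression of the estrogen receptor gene.

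The strength of a peak is given as fold enrichment, the number of reads stacked at the peak over a background, with 1 read added to each. A single background per list, 3.35 reads in replicate 1 and 3.52 in replicate 2, fitted the values of every peak, so fold enrichment is a rescaled height that holds no correction for local background or DNA copies. The steps between the deposited values gave back this number of reads, here called the peak height, for every peak. A TSS peak is a peak within 1 kb of any annotated transcription start site (TSS) of a gene, and the strongest one stands for the gene. Fold enrichment rose by 0.230 per read in replicate 1 and by 0.221 in replicate 2. Heights ranged from 11 to 1744 reads and from 11 to 1759 reads in the respective lists. The lists contain called peaks only, so openness below the lowest deposited −log10 q (2.24 and 2.07), where q is the p-value of a peak after adjustment over all peaks, was not detectable. In these bulk libraries, more cells with an open site and more open copies per cell cannot be told apart. Total reads per library are not in the peak lists, and the intervals below are exact Poisson 95% intervals of the heights that cover counting error only, because amplified reads are not independent molecules. All 5 epithelial marker genes (EPCAM, CDH1, KRT8, KRT18 and KRT19) had a TSS peak in both replicates, with means of 85.3 to 143. Of 8 markers of blood cells, fibroblasts and endothelium, 5 also had a TSS peak in both replicates, with means up to 70.3, and PTPRC, CD3E and PECAM1 had none. TSS peaks were thus also present at genes of other cell types.

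All 9 genes had a TSS peak in both replicates, beside 79.3% of all protein-coding genes. The start of the canonical transcript lay under a peak in both replicates for all 9, beside 65.0% of all protein-coding genes. With so high a share among all genes, these counts set the 9 genes apart little. The strength of the peaks varied more. MEAF6 was near the median of the protein-coding genes for which each replicate gave a TSS peak. KAT5 and KAT6B were in the highest percentiles.

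The DNA under the KAT6B peak is shown first because this peak carries the main contrast with the paralog. KAT6B (ENSG00000156650.14) occupies chr10:74824927-75032624 on the plus strand of hg38, and 26 of its 35 annotated starts are packed between positions 74824927 and 74827137. Printed here are the longest stretches free of annotated exons of any gene between these starts, the second one limited to the 250 bases before the next start. The first stretch is chr10:74825361-74825483 and the second is chr10:74826163-74826412, both given 5′ to 3′ on the plus strand. Both lay wholly under the KAT6B peak in each replicate. Capitals mark exact matches, on either strand, to GGGCGG (the GC box of SP and KLF factors), CCAAT (NF-Y, read as ATTGG on the other strand) and CCGGAAG (ETS factors).
KAT6B first stretch: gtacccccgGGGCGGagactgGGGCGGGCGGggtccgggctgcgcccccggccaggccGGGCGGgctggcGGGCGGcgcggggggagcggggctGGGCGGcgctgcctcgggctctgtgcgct
KAT6B second stretch: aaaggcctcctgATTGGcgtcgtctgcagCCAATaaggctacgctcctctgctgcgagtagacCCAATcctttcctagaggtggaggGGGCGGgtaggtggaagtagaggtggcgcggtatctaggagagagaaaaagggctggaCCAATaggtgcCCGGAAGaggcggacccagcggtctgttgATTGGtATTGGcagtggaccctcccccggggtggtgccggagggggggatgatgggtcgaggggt
The first stretch was 86.2% G and C and held 6 GC boxes, a pair of which overlap by sharing bases. The second was 61.2% G and C and held 6 CCAAT boxes, 1 ETS match and 1 GC box, so the stretches before the upstream and downstream starts differ in composition. A match is a run of letters and not a measured binding site.

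The corresponding stretches before the most upstream starts of KAT5, of ING5 and of MEAF6 are shown for contrast, because these genes had the strongest TSS peak, a peak shared with a divergent gene and the weakest TSS peak, respectively. They are chr11:65711746-65711995 (plus strand, KAT5), chr2:241686945-241687084 (plus strand, between ING5 and DTYMK) and chr1:37514767-37515016 (minus strand, MEAF6) of hg38, each free of annotated exons and wholly under a peak in both replicates. Capitals mark the same 3 motifs and CACGTG (the E-box).
KAT5: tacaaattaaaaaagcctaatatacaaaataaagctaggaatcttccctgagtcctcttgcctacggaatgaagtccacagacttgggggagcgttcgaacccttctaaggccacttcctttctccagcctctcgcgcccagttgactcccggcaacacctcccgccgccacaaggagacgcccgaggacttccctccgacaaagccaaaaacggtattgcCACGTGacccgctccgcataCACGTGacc
ING5 and DTYMK: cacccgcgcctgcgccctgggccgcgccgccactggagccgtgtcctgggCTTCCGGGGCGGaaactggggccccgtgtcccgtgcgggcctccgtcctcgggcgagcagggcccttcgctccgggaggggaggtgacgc
MEAF6: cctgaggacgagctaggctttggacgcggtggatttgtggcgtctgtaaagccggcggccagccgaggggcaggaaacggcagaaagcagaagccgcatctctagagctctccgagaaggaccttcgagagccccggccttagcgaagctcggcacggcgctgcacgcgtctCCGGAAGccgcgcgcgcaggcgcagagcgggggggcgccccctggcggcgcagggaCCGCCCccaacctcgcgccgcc
The KAT5 stretch was the least rich in G and C (53.6%) and held 2 E-boxes and none of the other 3 motifs. The stretch between ING5 and DTYMK (78.6% G and C) held 1 ETS match that overlaps its 1 GC box. The MEAF6 stretch (70.8%) held 1 of each, apart from one another.

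RefSeq promoters, the windows from 250 bases before to 50 bases after each annotated start (GRCh38.p14), were found for 7 of the 9 genes, with 11 promoters in all. KAT6A and KAT8 were not matched. The GC box occurred in 10 of the 11 promoters, from 6 genes, beside 45.0% of 35116 promoters of the same length, and the KAT7 promoter was the one without it. CCAAT occurred in 3 promoters (34.6% of all promoters), from KAT6B and ING5. CCGGAAG occurred in 5 (10.3%), from KAT5, KAT7, ING5 and MEAF6. AAGATGGC, the YY1 motif, occurred in 2 (2.89%) and CACGTG in 1 (7.26%). The NRF1 motif GCATGCGC, held by 3.05% of all promoters, had no exact match in the 11 windows. The same was true of TGACGTCA, the cyclic AMP response element (1.85%), and of TATAAA, the core promoter element bound by TBP (11.5%). Both strands were searched, and GGGCGG and CCGGAAG matches can overlap. The promoters were 57.7% to 80.7% G and C, beside a median of 58.7% over all promoters. The RefSeq promoter of KAT6B at chr10:74825229-74825528 was the richest of the 11 and held 10 GC boxes, and the one at chr10:74826350-74826649 held 4 CCAAT boxes and 1 GC box.

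Among the 9 genes, KAT5 had the strongest TSS peak. KAT5, also named TIP60, is the catalytic subunit of the NuA4 complex. Fold enrichment was 191 in replicate 1 (height 828 reads, interval 773 to 886) and 201 in replicate 2 (907 reads, 849 to 968), a mean of 196 ± 7.10 (SD, n = 2) that ranked 161 of 20033 protein-coding genes. The peak spanned 1965 bp and 1847 bp, and all 17 annotated starts of this 7.61 kb gene lay under a peak in each replicate. A second TSS peak near the 3′ end of KAT5 (129 and 139) also covers the start of RNASEH2C, so which gene it belongs to cannot be told apart from these lists.

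KAT6B came next, with a fold enrichment of 167 in replicate 1 (724 reads, 672 to 779) and 153 in replicate 2 (692 reads, 641 to 746). The mean of 160.0 ± 9.60 (SD, n = 2) ranked 468 of 20033, and the values stood at percentiles 98.0 and 97.0. Of its 35 annotated starts, at percentile 99.0 of protein-coding genes for their number, peaks covered 26 in replicate 1 and 28 in replicate 2. The KAT5 peak was stronger in both replicates, but the height intervals of KAT5 and KAT6B overlapped in 1 of the 2. The protein-coding genes directly above KAT6B were NACC2 (166 and 154) and HIBADH (159 and 161). KAT6B and these genes had means between 160.0 and 160.2, closer together than the replicates of any of them.

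The KAT6B peak was also wide, and its width differed between the replicates. It spanned 2510 bp in replicate 1 and 3733 bp in replicate 2. In replicate 1 a separate peak of 1126 bp (fold enrichment 27.4, 118 reads) ended 156 bp before the main peak, and in replicate 2 a single peak covered both. The width was 1.59 times the median of the other 8 genes in replicate 1 and 2.85 times in replicate 2, a mean of 2.22 ± 0.886 (SD, n = 2). This ratio thus depends on the replicate, and the widths of KAT6A (2436 and 2438 bp) and BRPF3 (2575 and 2852 bp) were close to or above that of KAT6B in replicate 1.

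KAT6A (ENSG00000083168.11) lies on the minus strand of chromosome 8, from 41929479 to 42051994 in hg38. Its strongest TSS peak had a fold enrichment of 65.8 (285 reads, 253 to 320.1) and 65.5 (295 reads, 262 to 331), a mean of 65.6 ± 0.250 (SD, n = 2). This peak ranked 6014 of 20033 and stood at percentiles 70.9 and 69.0, so KAT6A was above the middle of protein-coding genes but well below its paralog. Of 10 annotated starts, 4 lay under a peak in each replicate, all of them within the main peak.

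The KAT6B peak was 2.53 times as strong as the KAT6A peak in replicate 1 and 2.34 times in replicate 2, a mean ratio of 2.44 ± 0.137 (SD, n = 2). It was higher in 2 of 2 replicates, and the height intervals of the paralogs did not overlap in either. An exact two-sided sign-flip permutation test of the log2 ratio gave p = 0.5, the smallest value that 2 replicates allow. The ratio was larger relative to each gene's surroundings. The median TSS peak of protein-coding genes with starts within 5 Mb was 44.9 and 47.3 around KAT6B and 72.6 and 78.9 around KAT6A, and after division by it the ratio of KAT6B to KAT6A was 4.10 in replicate 1 and 3.91 in replicate 2. KAT6B stood 3.72 and 3.24 times above its local median, and KAT6A at 0.906 and 0.829 of its own. The local medians include any difference in DNA copies between the segments, which was not tested.

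**Figure D1:**
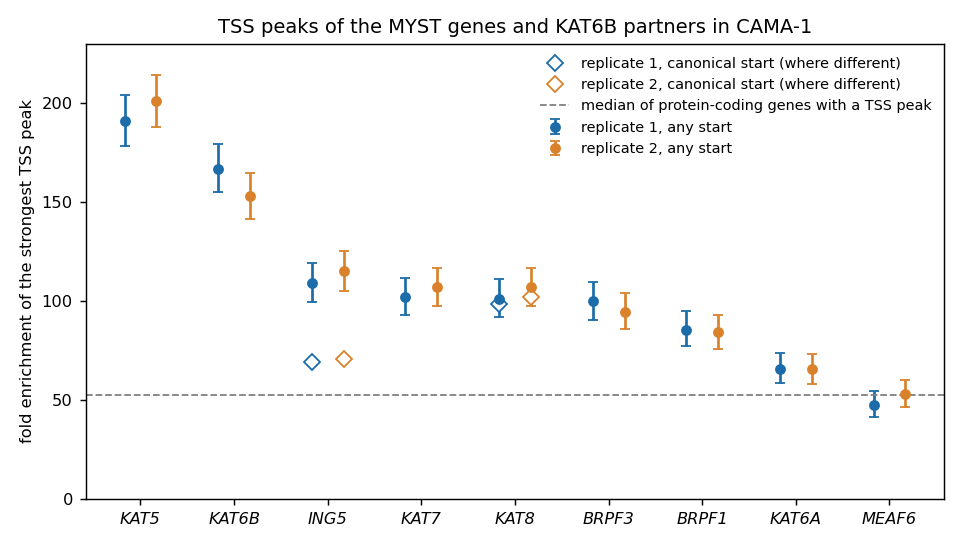
Fold enrichment of the strongest TSS peak of each gene in both replicates, with exact Poisson 95% intervals of the peak heights as error bars. Open diamonds mark the canonical start where its peak differs. The dashed line is the median of the protein-coding genes for which each replicate gave a TSS peak. KAT5 (191 and 201) and KAT6B (167 and 153) stand above the other 7 genes, and MEAF6 (47.6 and 53.1) lies at the dashed line of 52.6.

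The remaining MYST enzymes lay between the paralogs. KAT7, also named HBO1, is the enzyme that acetylates histone H3 and H4 with BRPF or JADE scaffolds and is needed around replication origins. Its TSS peak had a fold enrichment of 102 (442 reads) and 107 (484 reads), with a mean of 105 ± 3.76 (SD, n = 2). This peak also covers the start of FAM117A on the opposite strand. KAT8, also named MOF, acetylates histone H4 in the MSL and NSL complexes, and its strongest TSS peak reached 101 (436 reads) and 107 (484 reads), with a mean of 104 ± 4.73. That peak lies at an internal start near the 3′ end, close to the lncRNA ENSG00000261385, whereas the peak at the canonical KAT8 start had 98.5 and 102. The replicate ranges of KAT7 and KAT8 overlapped with either choice of start.

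The scaffold and reader subunits differed from one another. ING5 had values of 109 (474 reads) and 115 (519 reads), with a mean of 112 ± 4.02 (SD, n = 2), at its most upstream start, under a peak shared with DTYMK. At the canonical ING5 start, in a cluster with 6 of the 12 annotated starts, the peak was 69.3 (300 reads) and 70.5 (318 reads), a mean of 69.9 ± 0.906. The place of ING5 in the order therefore depends on the start that is used. BRPF3 had 99.9 (433 reads) and 94.6 (427 reads), a mean of 97.3 ± 3.69, under a peak shared with BRPF3-AS1. BRPF1, the scaffold most often found with KAT6A and KAT6B, had 85.6 (371 reads) and 84.2 (380 reads), a mean of 84.9 ± 0.951. MEAF6 was lowest, with 47.6 (206 reads, 179 to 236) and 53.1 (239 reads, 209.7 to 271), a mean of 50.3 ± 3.85 that ranked 8318 of 20033.

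From strongest to weakest, the order was KAT5, KAT6B, ING5, KAT7, KAT8, BRPF3, BRPF1, KAT6A and MEAF6. Of the 8 pairs of neighbours in this order, only KAT7 and KAT8 had overlapping replicate ranges. Counting error separated fewer of them: height intervals overlapped in both replicates for ING5 and KAT7, KAT7 and KAT8, KAT8 and BRPF3, and BRPF3 and BRPF1. They overlapped in neither replicate for KAT6B and ING5 or for BRPF1 and KAT6A. With canonical starts only, a choice made after seeing the data, ING5 moved to the place between BRPF1 and KAT6A, and the rest kept their order by mean. The replicate ranges of KAT8 and BRPF3 then overlapped as well, with KAT8 higher in 1 of the 2 replicates.

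KAT6B stood above the median of the other 8 genes in 2 of 2 replicates, 1.66 times in replicate 1 and 1.52 times in replicate 2. The mean ratio was 1.59 ± 0.104 (SD, n = 2), with an exact two-sided sign-flip permutation p of 0.5, again the smallest possible. Over all 9 genes the median TSS peak was 101 and 107, beside 51.8 and 53.3 for the 15890 protein-coding genes that had such a peak in each replicate. All but MEAF6 had a mean above the median of these genes.

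**Figure D2:**
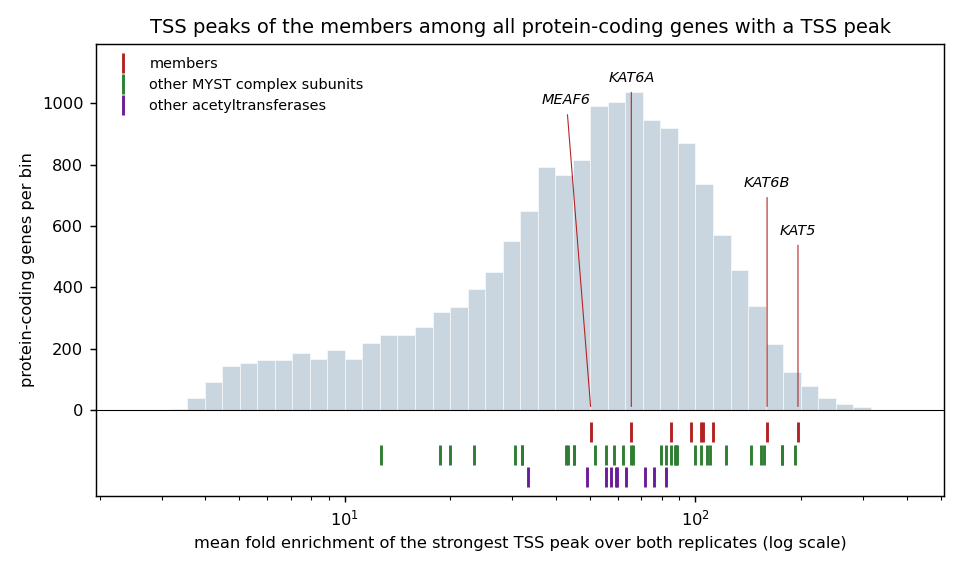
Histogram of the mean fold enrichment of the strongest TSS peak over both replicates (log scale) for all protein-coding genes that had one in each. Red ticks mark the 9 genes and purple ticks the 10 other acetyltransferases. Green ticks mark the further list of 34 genes (other MYST complex subunits, with ING1 and ING2). KAT6B (160.0) and KAT5 (196) lie in the right tail, KAT6A (65.6) and MEAF6 (50.3) near the peak of the distribution.

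The wider MYST machinery was open as well, at lower levels. A further list of 34 genes held other subunits of the NuA4, BRPF or JADE, MSL and NSL complexes. It also held ING1 and ING2, genes of the ING family that are not counted here as subunits of these complexes. All 34 had a TSS peak in both replicates, beside 79.3% of protein-coding genes. Their median was 76.7 in replicate 1 and 74.6 in replicate 2. A mean above 52.6 was found for 22 of 34, beside 7945 of the 15890 protein-coding genes for which each replicate gave a TSS peak. The value 52.6 is the median of these 15890 genes. By mean, 3 of the 34 exceeded KAT6B, beside 467 of all 20033 protein-coding genes. They were ING1 (191 and 193, under a peak shared with CARS2), KANSL2 (177 and 176) and KANSL1 (162 and 189, under a peak shared with KANSL1-AS1). KANSL2 and KANSL1 are subunits of the NSL complex of KAT8. In replicate 1 KANSL1 lay below KAT6B (167), and a further subunit (168) lay above it. In replicate 2 another further subunit (157) lay above KAT6B (153). The weakest were WDR5 (13.1 and 12.4), BRD1 (17.5 and 19.9) and MSL1 (22.5 and 17.5). BRD1 is the third BRPF-type scaffold, also named BRPF2, so its TSS peak lay far below those of BRPF1 and BRPF3.

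Lysine acetyltransferases outside the MYST family had moderate peaks. All 10 had a TSS peak in both replicates, beside 79.3% of protein-coding genes. Their medians were 59.1 and 61.1, beside 51.8 and 53.3 for the protein-coding genes with such a peak in each replicate. None of the 10 exceeded KAT6B, beside 467 of all 20033 protein-coding genes that did so by mean. TAF1 (80.8 and 83.6), ATAT1 (72.7 and 79.2) and NCOA3 (67.9 and 75.8) were highest, and NCOA1 (29.7 and 36.9), KAT14 (51.1 and 47.1) and KAT2A (53.2 and 57.9) were lowest. KAT6A (65.8 and 65.5) lay within the range of this group, while KAT5, KAT7 and KAT8 were above all 10 of its members in both replicates.

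Away from the main promoters, KAT6B and KAT6A had long gene bodies with many weaker peaks. Peaks of the replicates that overlapped were merged into 196 regions over the 9 genes, of which 146 were called in both replicates. Of these regions, 88 lay more than 1 kb from any annotated TSS of any gene, here called distal, and were called in both. Of the 88, 55 lay in introns, 18 in exons and 15 between genes. KAT6B held 30 and KAT6A 20, and the other 7 genes held between 3 and 11 each. The windows differ in length, with 248 kb for KAT6B and 163 kb for KAT6A.

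KAT6B had no peak in the first 25.0 kb after its main promoter in either replicate, although 3 starts are annotated in this stretch. The next region was 26.1 kb from the canonical start and was weak (5.75 and 7.52). Of the 30 distal regions, 22 lay in intron 3 of the canonical transcript, which is 116 kb long. The strongest of these were at 63.2 kb (33.8 and 31.2), 49.2 kb (32.7 and 31.2), 122 kb (29.5 and 28.5) and 74.9 kb (29.0 and 25.2) from the canonical start. The strongest distal region of all lay 196 kb into the gene at chr10:75021757-75022674, with 41.2 and 39.8, and it overlaps coding exon 16 of 18 and the lncRNA ENSG00000234149. The median distal region had a fold enrichment of 7.98, and 8 of the 30 had a mean of at least 20. None reached the promoter: the strongest had 0.253 of the mean of the TSS peak.

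The internal starts of KAT6B were weakly open or without a peak. The pair of starts between 74975946 and 74976521 had a TSS peak of 7.13 and 9.73, and the pair between 75019503 and 75019638 had a peak over the starts (6.67 and 7.96) and another within 1 kb (7.36 and 6.19). The other 5 internal starts had no peak within 1 kb in either replicate. Upstream, a region 4.51 kb before the canonical start (44.2 and 45.6) covers the start of the lncRNA ENSG00000272748 and was the second strongest of the whole KAT6B window.

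KAT6A was arranged differently, with distal regions nearly as strong as its promoter. The strongest lay in intron 2, 41.5 kb from the start (60.7 and 53.5), followed by one at 56.6 kb (57.5 and 49.5) and one at 46.4 kb (27.8 and 29.0). The first had 0.870 of the mean of the KAT6A TSS peak, compared with 0.253 at KAT6B. Intron 2 is 60.8 kb long and held 12 of the 20 distal regions, or 1.97 per 10 kb, beside 1.89 per 10 kb in intron 3 of KAT6B. Only 3 of the 20 had a mean of at least 20, and the median was 6.42. Near internal KAT6A starts, the strongest peak (28.3 and 34.5) was above those near internal KAT6B starts and the weakest called in both replicates (4.37 and 6.19) was no stronger than any of them.

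**Figure D3:**
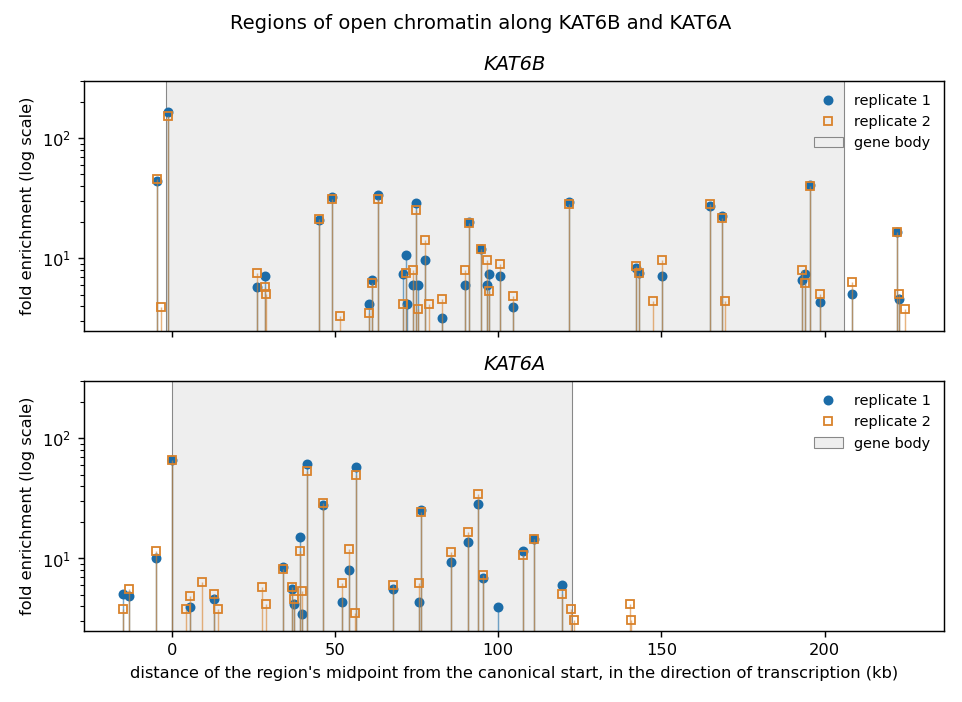
Fold enrichment (log scale) of every region in the windows of KAT6B and KAT6A against the distance of its midpoint from the canonical start in the direction of transcription, with filled circles for replicate 1, open squares for replicate 2 and the gene body shaded. KAT6B has 1 dominant promoter region followed by 25.0 kb without a peak, whereas at KAT6A regions at 41.5 kb and 56.6 kb come close to the promoter.

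The other 7 genes had few distal regions, and many of their strongest ones lay in neighbouring genes. MEAF6 was the only one of the 9 whose strongest distal region exceeded its own TSS peak in the mean over both replicates, by 1.09 times. The region was stronger than the TSS peak in replicate 1 (56.4 against 47.6) and equal to it in replicate 2 (53.1 for each). This region (56.4 and 53.1) lies 43.0 kb from the MEAF6 start in an intron of ZC3H12A-DT, and the strongest in an intron of MEAF6 itself had 39.1 and 42.7. The strongest distal region near KAT5 (58.9 and 52.0) lay between genes, 5.73 kb upstream of the canonical start. At BRPF1 it lay in CPNE9 (47.2 and 40.7), at BRPF3 in an intron of PNPLA1 (43.5 and 40.2), and at ING5 between genes (46.7 and 46.0). The strongest near KAT8 (38.2 and 43.8) was in BCKDK and that near KAT7 (22.1 and 18.6) in an intron of FAM117A. Which gene such a region acts on was not tested.

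Per length of window, KAT6B and KAT6A were alike in replicate 1 and neither was extreme. KAT6B had 1.29 and 1.53 distal peaks per 10 kb, at percentiles 69.5 and 75.2 of protein-coding genes. KAT6A had 1.29 and 1.78, at percentiles 69.5 and 81.6. BRPF3 had the most, 1.71 and 2.10, and KAT8 the fewest, 0.527 in each replicate. The divisor was the whole window, including stretches near starts, where no peak counts as distal. Counting all peaks, KAT8 had the most per 10 kb (4.39 and 4.04), beside 1.57 and 1.78 at KAT6B and 1.66 and 2.22 at KAT6A. The density of distal peaks at KAT6B was 1.31 ± 0.0107 times (SD, n = 2) the median of the other 8 genes. This ratio is not stable: it was 0.963 when the windows reached 50 kb on either side and 1.68 when only peaks with a −log10 q of at least 10 were kept.

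**Figure D4:**
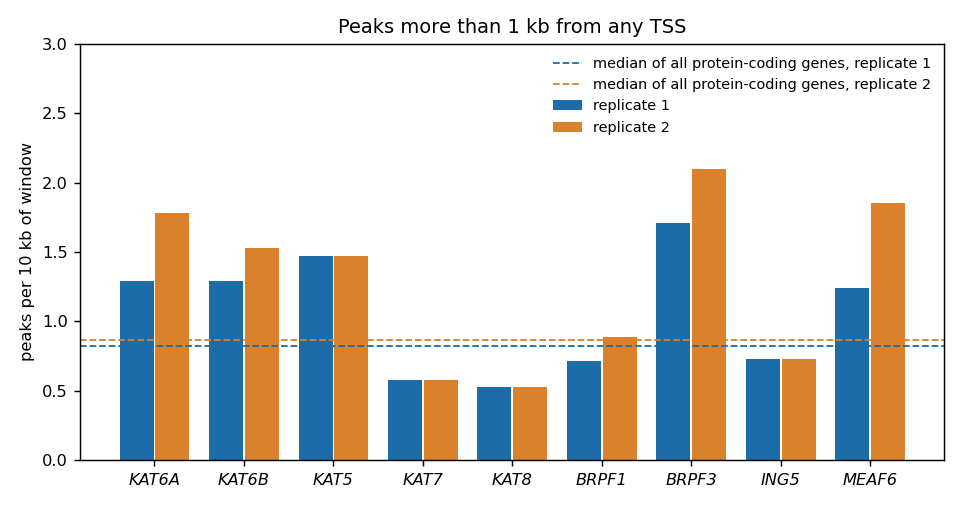
Peaks more than 1 kb from any annotated TSS per 10 kb of window (gene body and 20 kb on either side), as bars for each gene and replicate, with dashed lines at the medians of all protein-coding genes (0.821 and 0.864). BRPF3, MEAF6, KAT6A, KAT6B and KAT5 lie above the lines in both replicates, KAT7, KAT8 and ING5 below them in both.

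The replicates matched closely at strong regions and less at weak ones. Of the 170 peaks of replicate 1, 157 overlapped a peak of replicate 2 (92.4%, beside 90.2% of all peaks), and 155 of the 192 peaks of replicate 2 overlapped one of replicate 1 (80.7%, beside 84.7%). These shares were near those of all peaks. Over the 60 regions with a fold enrichment of at least 20 in replicate 1 that were called in both, the value in replicate 2 was 0.842 to 1.34 times that in replicate 1. Over all 146 regions it was 0.571 to 2.34 times, with a median of 1.01. The 50 regions called in 1 replicate, 13 in replicate 1 and 37 in replicate 2, were all weak, with 2.87 to 7.08.

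**Figure D5:**
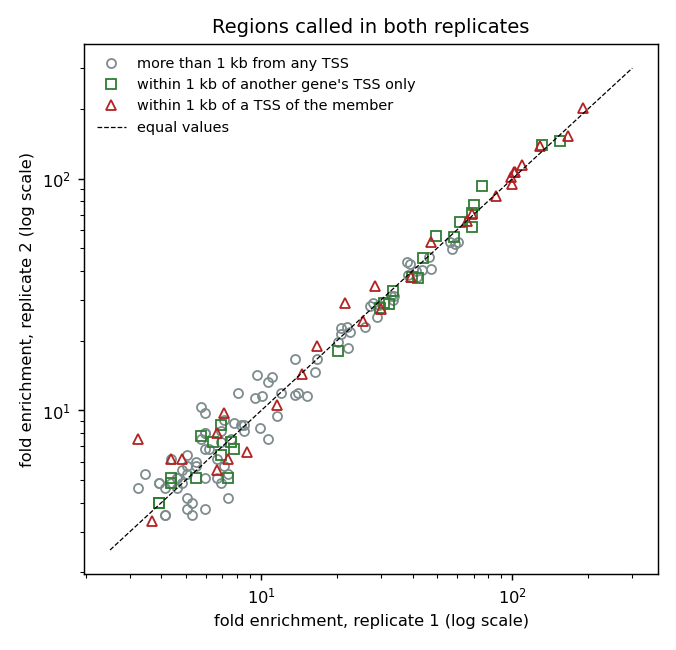
Fold enrichment in replicate 2 against replicate 1 (both log scales) for the 146 regions of the 9 genes called in both replicates, with red triangles within 1 kb of a start of the gene, green squares within 1 kb of another gene's start only, grey circles farther from any start, and a dashed line of equal values. Points close in on the line as the fold enrichment rises, and the scatter is widest below 10.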

How the data were processed

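CAMA-1 ATAC-seq was analysed in 2 biological replicates of 1 condition, grouped by their labels. Per the submitters' processing notes, Trim Galore 0.6.5, Bowtie2 2.3.5.1 and MACS2 2.2.6 were used with hg38. MACS2 settings, treatment of duplicates and excluded regions are not given in the sources used here. The authors called peaks in each replicate without pooling and deposited a score and a fold enrichment (the ratio to background) for each peak. The authors also deposited its −log10 p-value and −log10 q-value. The score and the −log10 p were not analysed further. Peak heights were recovered from the steps of the deposited fold enrichment, to within 8.13e-05 of a whole read.

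Genes, starts and exons came from GENCODE release 44, and Ensembl canonical transcripts gave the canonical starts. A region is the union of overlapping peaks (at least 1 bp) of both replicates. Ratios were taken within a replicate, since both values come from 1 library, and tested by an exact two-sided sign-flip permutation test over replicates. The labels do not describe how the replicates were separated beyond being biological, and with 1 condition no groups were compared. Strong peaks are better measured than weak ones: a height of 11 reads is the lowest in the lists. Local levels were medians over protein-coding genes within 5 Mb. The functions were tested on simulated data. Scripts ran in Python 3.11.15 with matplotlib 3.10.9, scipy 1.17.1 and numpy 2.4.6.

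The 9 genes and the lists were chosen with earlier results of these data known. Genes named are the 9, the 3 highest and 3 lowest of each further list, the 2 genes above and the 2 below KAT6B in rank (those below are not reported here), and genes sharing a TSS peak or holding the strongest distal region. Alternatives were stricter or shared peaks, other distances, flanks and starts, −log10 q in place of fold enrichment, local scaling, covered bases and the omission of each replicate. Canonical starts and the joining of TSS peaks under 500 bp apart were added after seeing the data.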

Additional observations from a re-analysis of the deposited data

How the results depend on the processing

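No paired analysis was possible because the 2 replicates form a single condition with no second group of samples to pair; ratios between genes were taken within each replicate throughout. Of 84 alternative values for 8 results, 77 met a rule for staying the same. Ratios with a test had to keep their direction and their side of the threshold. Counts had to stay within 1.5 times, and values without a test had to move by less than 1 SD. With 2 replicates no test could pass a threshold of 0.05, so none of the ratios has a call to lose. The rule for ratios with a test thus rests on direction alone, and their size changed under some alternatives, as given below. The density of distal peaks at KAT6B over the median of the other 8 genes (1.31) fell to 0.963, the opposite direction, with flanks of 50 kb. It was 1.21 with flanks of 10 kb, 1.55 with none, 1.68 with a −log10 q of at least 10, 1.42 for peaks sharing at least 1 bp with the other replicate, 1.46 with a reciprocal overlap of 50%, and 1.35 as bases covered. The cause was not tested. With either replicate left out, the KAT6B TSS peak was 153 to 167, its ratio to KAT6A 2.34 to 2.53, its ratio to the other genes 1.52 to 1.66, the density ratio 1.30 to 1.32 and the width ratio 1.59 to 2.85, the lower width being that without replicate 2. The ratio of KAT6B to KAT6A was 3.91 to 4.10 after local scaling and 3.07 with −log10 q, and that to the other genes reached 2.37 after local scaling. All 9 genes had a TSS peak in both replicates under every alternative run. In the further list of 34 genes, 33 had one with the most upstream start only. Joining TSS peaks under 500 bp apart, chosen after seeing the data, gave a width ratio of 2.14. Weak peaks limit the distal counts, since a peak below the threshold of the caller in 1 library is absent from its list.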
